A study of Mus musculus with 8 samples.

Results

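A rule set oocytes with a mutant BTG4 against GV oocytes and against oocytes with wild-type BTG4. Among the 15962 genes listed for all 8 libraries, 6 met its limits for a higher RNA level with the mutant. The genes were Ccdc85c, Grb7, Alyref, Rap2b, Tceanc2 and 8030462N17Rik. They were selected on measured values: a mean of at least 5 TPM (a share of the library corrected for gene length and scaled to a fixed total) in the mutant group, and a lowest mutant TPM + 1 of at least 1.5 times the highest value in GV oocytes and at least 1.5 times the highest value in oocytes with wild-type BTG4. Symbols that start with Gm and a digit, Slc, or Zfp and a digit were left out, which removed 2 genes. The differences of Btg4tm from GV and from Btg4wt oocytes are therefore a description of the selection and were not tested, and counts of calls that use any of these 3 groups carry the same selection. MII oocytes without injection took no part in the selection.

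Fully grown mouse oocytes rest at the germinal vesicle (GV) stage with a store of maternal mRNA, and transcription is silent until after fertilisation. During maturation to metaphase II (MII) much of this store is removed, and BTG4, an adaptor that brings the CCR4-NOT deadenylase to mRNA, shortens poly(A) tails in that process. The unit used here gives each RNA as a share of its library, and a share above that in GV oocytes need not mean more molecules per oocyte.

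Polyadenylated RNA was profiled in 4 groups of 2 libraries, each from 15 zona-free oocytes. The labels state 3 samples for each group, and 2 were analysed here. GV and MII oocytes were uninjected, and the other 2 groups were MII oocytes that overexpressed Myc-tagged BTG4 from injected cRNA, either wild-type (Btg4wt) or with 3 phosphorylation sites changed to alanine (Btg4tm). The methods give superovulated female ICR mice of 6 weeks as the source of oocytes. By the paper, the uninjected GV and MII oocytes came from oocytes cultured in vitro. Reverse transcription was primed with oligo(dT), so the number of molecules and the length of their tails cannot be told apart, and the deposited TPM do not keep the sequencing depth. The labels do not say whether the libraries of a group came from separate collections, so p-values measure the spread between these libraries, which may be technical. Across genes, the 2 libraries of a group correlated with a Pearson r between 0.985 and 0.988. The oocyte markers fixed for the check summed to 43489 to 55819 TPM per library, and those of cumulus and granulosa cells to 38.6 to 49.8 TPM, of which 14 of 25, Foxl2 and Amh among them, were listed in no library. The latter sum, carried by Cyp19a1 and Nr5a2, was 38.6 and 44.6 TPM in Btg4tm and 41.1 to 49.8 TPM in the other groups. Of the 9 such markers in all 8 libraries, 2 had both Btg4tm libraries above all GV and Btg4wt libraries, as the 6 genes do. These were Inha, with 4.64 and 2.33 TPM in GV, 0 and 0.52 in MII, 1.86 and 1.05 in Btg4wt and 9.74 and 4.91 in Btg4tm oocytes, and Ptgs2, which stayed at or below 0.58 TPM. Cyp11a1, listed for injected oocytes only, had 0.11 and 0.25 TPM in Btg4wt and 0.28 and 0.14 in Btg4tm oocytes, which overlap. Fshr, also listed for injected oocytes only, had 0.06 and 0.15 TPM in Btg4wt and 0.47 and 1.42 in Btg4tm oocytes. Nr5a2 went the other way, with 8.88 and 9.20 TPM in Btg4tm and 13.5 to 20.2 in the libraries of the other groups. Of the 14 oocyte markers in all 8 libraries, 1 (Gdf9) also had both Btg4tm libraries above all GV and Btg4wt libraries. The part of cumulus and granulosa cells in the results was not tested. Btg4 itself, the injected gene, was at 2816 and 3093 TPM in GV, 5645 and 5816 in MII, 5134 and 5331 in Btg4wt and 3689 and 3856 in Btg4tm oocytes. Neither injected group exceeded uninjected MII oocytes in Btg4 RNA by this measure. The paper shows overexpression of both BTG4 proteins by immunoblot, and states that endogenous BTG4 seemed to be reduced. How far oligo(dT) priming captured the injected cRNA was not tested.

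The 3′ ends of 5 of the 6 transcripts are shown first, because both oligo(dT) priming and deadenylation act there. Capitals mark the poly(A) signal, AATAAA or ATTAAA, that lies nearest to the end of the longest transcript annotated in GENCODE M21 on GRCm38. Each stretch starts 4 bases before the signal and has at most 30 bases, read 5′ to 3′ on the transcript strand.
Ccdc85c: agatAATAAAggcctctttgtgagcctc
Grb7: tagcAATAAAgattattttttgataca
Alyref: gatgAATAAAtgtttgtattgaagtgtaca
Tceanc2: aggcAATAAAatagccaacaaaaata
Rap2b: tacaATTAAAgctgctgcaggaaaatg

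The signal began 24 bases from the annotated end in Ccdc85c, 23 in Grb7 and Rap2b, 22 in Tceanc2 and 34 in Alyref. Rap2b also had an AATAAA 46 bases from its end. All 6 transcripts held AATAAA within their last 100 bases, against 65.0% of the 9432 tested genes whose longest transcript is coding. The motif TTTTAT, the core of a cytoplasmic polyadenylation element, was found in the last 100 bases of Grb7 alone, where it starts 38 bases from the end and overlaps no poly(A) signal, against 14.7% of those genes. The variant TTTTAAT and the Pumilio motif TGTANATA were not found in any of the 6, against 5.64% and 4.78%. All motifs were searched on the transcript strand, and a match is a description of the letters.

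The selection took few genes because both conditions seldom met. Of the 8644 genes with a mean of at least 5 TPM in Btg4tm oocytes, 2381 reached 1.5 times the highest Btg4wt value. In these 2381 genes the median ratio of the lowest Btg4tm to the highest GV value (TPM + 1) was 0.636, and the quartiles were 0.546 and 0.732. In 1844 of them both Btg4tm libraries lay below both GV libraries, and in 68 both lay above. The ratio to GV reached 1.5 in 191 genes whatever the Btg4wt level, and in 147 of these Btg4wt oocytes were also at least 1.5 times GV. Both ratios reached 1.5 in 8 genes, of which 6 remained after the symbols were filtered. Membership rests on the scaling: with quantile normalization Ccdc85c, Alyref and Rap2b met the rule, and with scaling to the mitochondrially encoded RNAs Ccdc85c and Alyref did.

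**Figure D1:**
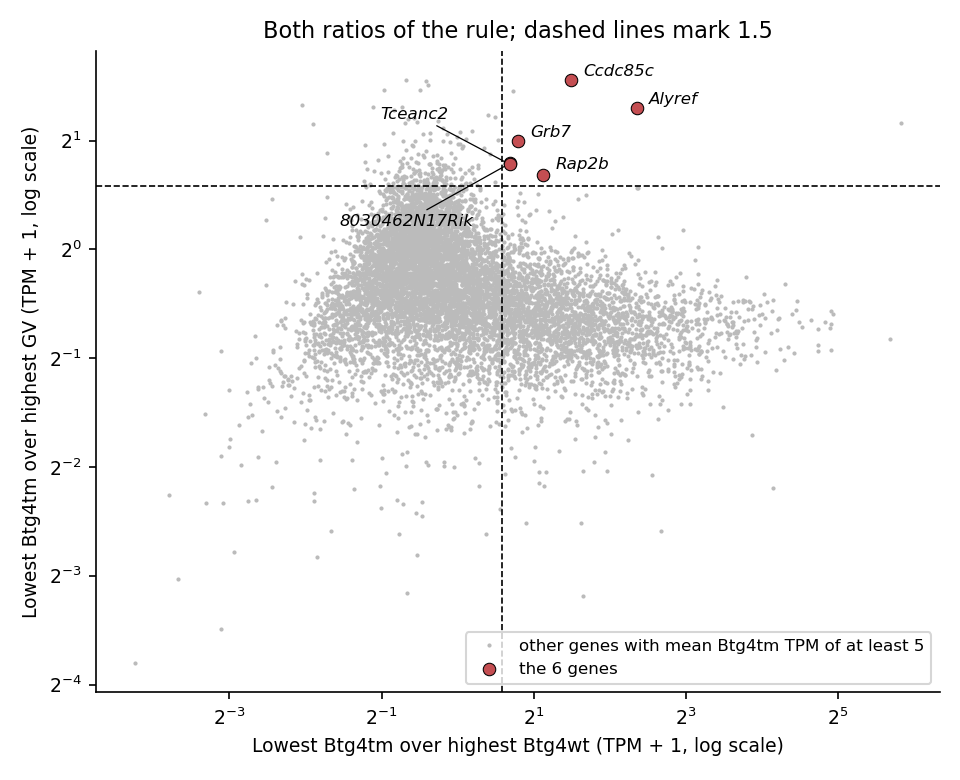
Lowest Btg4tm over highest Btg4wt value (x axis) and lowest Btg4tm over highest GV value (y axis), both as ratios of TPM + 1 on log scales, for 8644 genes with a mean of at least 5 TPM in Btg4tm oocytes. Dashed lines mark 1.5. The 6 genes (red) lie in the sparsely filled upper right; most genes right of the vertical line have a ratio to GV under 1.

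The 6 genes were at a moderate level. Their mean in Btg4tm oocytes ran from 8.60 TPM for Rap2b to 65.4 TPM for 8030462N17Rik, which were the 55.3 and 85.6 percentiles of all listed genes. All 6 passed the filter of the test, at least 1 TPM in at least 2 libraries. None belonged to the 21 gene lists examined, which hold 1108 of the 15962 genes listed for all 8 libraries. At so small a share, the absence of 6 genes from the lists is a description and sets them apart from nothing. The lists cover ribosomal proteins, the respiratory chain, the proteasome, splicing and transcription machinery, histones, vesicle traffic, deadenylation, and oocyte and cell cycle genes.

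**Figure D2:**
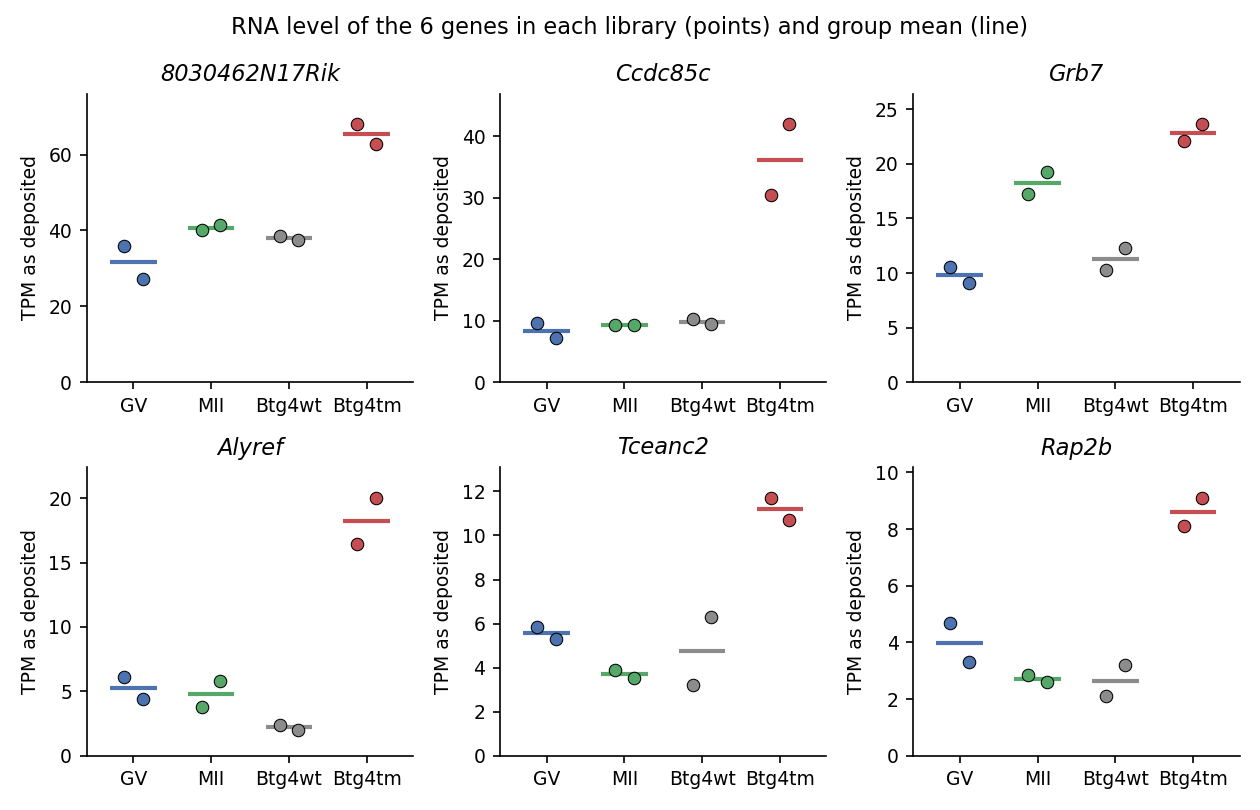
Deposited TPM (y axis, from 0) of each gene in the 8 libraries, grouped by GV, MII, Btg4wt and Btg4tm oocytes (x axis). Points are libraries and lines are group means of 2. Btg4tm is the highest group in each panel, as the selection requires for GV and Btg4wt; Grb7 has its MII libraries between those of Btg4wt and Btg4tm.

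Alyref encodes an adaptor of the TREX complex that carries mRNA out of the nucleus. It lies on the minus strand of chromosome 11 (GRCm38, 120592121 to 120598365). Its TPM were 6.08 and 4.39 in GV, 3.78 and 5.83 in MII, 2.40 and 1.99 in Btg4wt, and 16.4 and 20.01 in Btg4tm oocytes. GV and MII oocytes overlapped, both Btg4wt libraries were lower than any other, and both Btg4tm libraries were higher. The lowest Btg4tm value (TPM + 1) was 5.12 times the highest Btg4wt value, which was the largest such ratio of the 6, and 2.46 times the highest GV value.

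Ccdc85c encodes a coiled-coil protein of apical cell junctions in neural progenitors, and lies on the minus strand of chromosome 12 (108203602 to 108275425). It had 9.69 and 7.10 TPM in GV, 9.36 and 9.33 in MII, 10.2 and 9.45 in Btg4wt, and 30.5 and 41.9 in Btg4tm oocytes. The 6 libraries outside Btg4tm stayed within 7.10 to 10.2 TPM, and both Btg4tm libraries stood well above them although they differed by 1.37 times from each other. Its ratio of the lowest Btg4tm to the highest GV value was 2.94, the largest of the 6, and that to the highest Btg4wt value was 2.81.

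Grb7 encodes an SH2 domain adaptor that binds activated receptor tyrosine kinases, and lies on the plus strand of chromosome 11 (98446394 to 98455373). Its TPM were 10.5 and 9.05 in GV, 17.2 and 19.3 in MII, 10.2 and 12.3 in Btg4wt, and 22.1 and 23.6 in Btg4tm oocytes. GV and Btg4wt overlapped, and MII oocytes lay above both and below Btg4tm. The ratio of its lowest Btg4tm to its highest value was 1.997 for GV, 1.74 for Btg4wt and 1.14 for MII oocytes.

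Rap2b encodes a small GTPase of the Ras family and lies on the plus strand of chromosome 3 (61361638 to 61368430). It had 4.67 and 3.29 TPM in GV, 2.85 and 2.60 in MII, 2.10 and 3.18 in Btg4wt, and 8.10 and 9.10 in Btg4tm oocytes. The MII libraries lay below both GV libraries and within the Btg4wt range. Its ratio to the highest GV value, 1.60, was the lowest of the 6, and that to Btg4wt was 2.17.

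Tceanc2 encodes a protein with domains like those of the transcription elongation factor TFIIS, and lies on the minus strand of chromosome 4 (107134155 to 107179116). Its TPM were 5.82 and 5.31 in GV, 3.87 and 3.53 in MII, 3.19 and 6.28 in Btg4wt, and 11.7 and 10.7 in Btg4tm oocytes. The Btg4wt libraries differed by 1.97 times, the widest replicate gap in the 6 genes, and spanned both the GV and MII values. Its ratio was 1.72 to GV and 1.61 to Btg4wt.

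8030462N17Rik, a protein-coding gene still listed under its clone name, lies on the minus strand of chromosome 18 (77631497 to 77714486) and was the most abundant of the 6. It had 35.9 and 27.3 TPM in GV, 40.03 and 41.5 in MII, 38.6 and 37.6 in Btg4wt, and 67.9 and 62.8 in Btg4tm oocytes. GV oocytes were lowest, MII and Btg4wt oocytes differed little, and both Btg4tm libraries were highest. Its ratio was 1.73 to GV and 1.61 to Btg4wt, close to the limit in each.

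On the log2 scale of the scaled TPM + 1, the difference between Btg4tm and GV oocytes was 2.11 for Ccdc85c, 1.75 for Alyref, 1.28 for Grb7, 1.18 for 8030462N17Rik, 1.07 for Rap2b and 1.02 for Tceanc2. That between Btg4tm and Btg4wt oocytes was 2.59 for Alyref, 1.77 for Ccdc85c, 1.42 for Rap2b, 1.15 for Tceanc2, 0.97 for Grb7 and 0.77 for 8030462N17Rik. Both sets of values follow from the selection and carry no test. Alyref led in one and Ccdc85c in the other.

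The comparison of MII with GV oocytes asked whether these RNAs decline in maturation without injection, as most RNAs that are higher with mutant BTG4 do. None of the 6 was called lower in MII than in GV oocytes (limma on log2 of the scaled TPM + 1 with Benjamini-Hochberg adjustment over 13968 genes, adjusted p under 0.05 and a log2 fold change over 1), where 24.0% of all genes tested were called lower. None was called higher either, against 12.2% of all genes tested. An unadjusted p under 0.05 was found for 2 of the 6 genes and for 9268 of the 13968 genes tested. Of the 2381 genes at least 1.5 times Btg4wt, 2162 (90.8%) were lower in MII oocytes and 219 were not called. The median log2 fold change from GV to MII was 0.15 in the 6 genes, -2.14 in the 2381 genes and -0.01 in all genes tested. The selection asked for low GV values, which favours genes that did not decline, and for low Btg4wt values, which lie near those of MII oocytes and so bear on the other side. The counts and the values of single genes below are therefore descriptions of the set, and no p is given for them.

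Grb7 came nearest to a call in this comparison, at 0.97 on the log2 scale (standard error 0.17), just under the minimum of 1. For 8030462N17Rik the value was 0.51 (standard error 0.15). Ccdc85c had 0.28 (standard error 0.22) and Alyref 0.01 (standard error 0.25). Tceanc2 had -0.36 (standard error 0.27) and Rap2b -0.29 (standard error 0.24). The values of these last 4 genes do not show that the stages were equal.

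These directions rest on the scaling between libraries. With scaling to the mitochondrially encoded RNAs the median of all genes tested moved to -1.74 from GV to MII oocytes, and the median of the 6 genes was -1.74 as well. All 6 were then called lower, as were 11403 of the 13968 genes tested. Of the 6 genes, 3 (Tceanc2 at -2.13, Rap2b at -1.95 and Alyref at -1.80) lay below the median of all genes and 3 above it. Quantile normalization moved the 2 medians to 0.28 and 0.51 and called Grb7 higher in MII oocytes. Leaving out GV replicate 1 or MII replicate 1 also brought Grb7 over the limit, with log2 fold changes of 1.08 and 1.06.

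Injection of wild-type BTG4 against no injection was compared next. No gene of the 13968 was called higher or lower in Btg4wt than in MII oocytes by limma (0% in each direction), and neither was any of the 6; an unadjusted p under 0.05 was found for 1652 genes, 2 of the 6 among them. These 2 were Alyref, with a log2 fold change of -0.85 (standard error 0.25), and Grb7, with -0.66 (standard error 0.17). They lay at the 1.29 and 2.77 percentiles of all genes in this comparison. In both genes each Btg4wt library was below each MII library, and the selection favoured low Btg4wt values. The other 4 genes had values from -0.11 to 0.22.

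Against uninjected MII oocytes, which played no part in the selection, 4 of the 6 genes were called higher in Btg4tm oocytes, where 19.2% of all genes tested were called higher. None of the 6 was called lower, against 7.40% of all genes tested. The Btg4tm libraries were chosen for high values, so this count describes the set. The log2 fold changes were 1.83 for Ccdc85c (standard error 0.22), 1.74 for Alyref (standard error 0.25), 1.37 for Tceanc2 (standard error 0.27) and 1.36 for Rap2b (standard error 0.24). They were 0.66 for 8030462N17Rik (standard error 0.15) and 0.31 for Grb7 (standard error 0.17), which were not called. With scaling to the mitochondrially encoded RNAs these became 2.21 and 1.80, and all 6 genes were called higher, as were 8550 of the 13968 genes tested, whose median moved to 1.22. By the plain ratio, 5 of the 6 had a lowest Btg4tm value at least 1.5 times the highest MII value, against 29.3% of the 8644 genes with a mean of at least 5 TPM in Btg4tm oocytes. Grb7, at 1.14, did not.

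**Figure D3:**
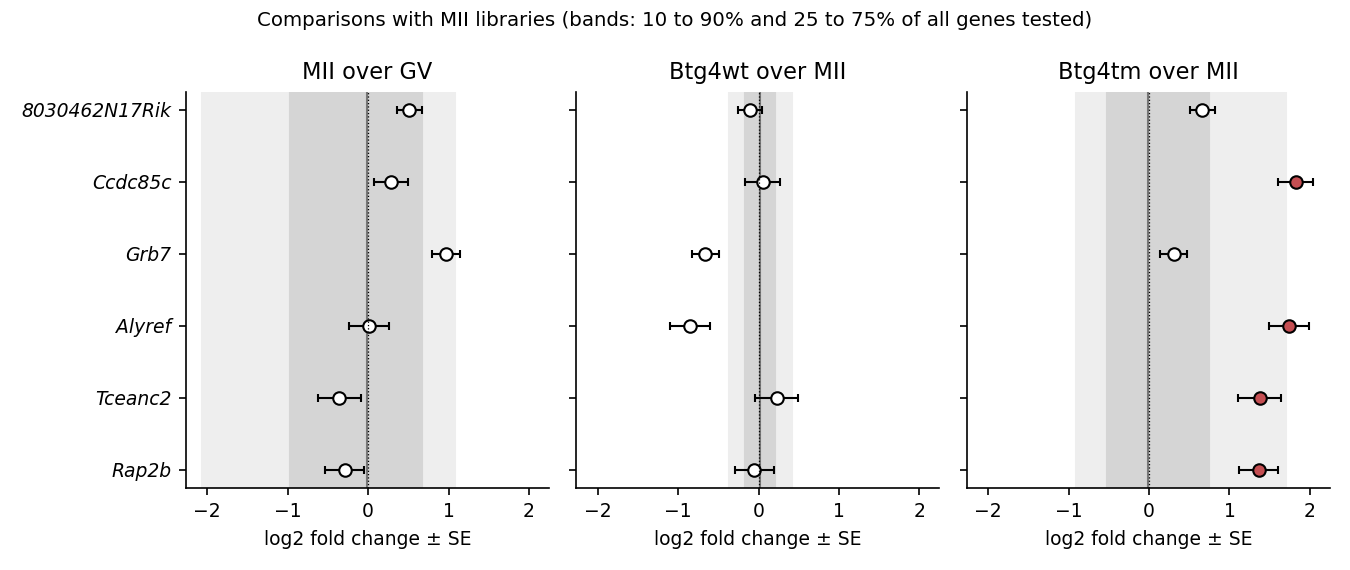
Log2 fold change (x axis) with its standard error for each of the 6 genes in 3 comparisons with uninjected MII oocytes, from limma over 8 libraries. Filled points were called; bands hold 80 and 50% of all genes tested, and the grey line is their median. From GV to MII the 6 genes lie between -0.36 and 0.97, and 4 of them are called higher in Btg4tm than in MII oocytes.

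Before the mutant is considered, the 6 genes differed in the order of their values. None was called in MII over GV or in Btg4wt over MII. The GV and Btg4wt values also took part in the selection, so these orders are a description. Grb7 had more TPM in each MII than in each GV library, and its Btg4wt libraries overlapped those of GV. Alyref lay outside its GV and MII ranges in both injected groups, being lowest in Btg4wt and highest in Btg4tm oocytes. In Ccdc85c, Tceanc2, Rap2b and 8030462N17Rik, MII and Btg4wt oocytes differed by at most 0.22 on the log2 scale.

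Genes near the limits gave 2 further pictures. The 3 nearest below the GV limit were Marchf11, Sfta2 and Asf1a, with ratios of 1.48, 1.48 and 1.43 to GV. Sfta2 had 32.6 and 31.5 TPM in GV, 4.05 and 3.65 in MII, 8.61 and 6.94 in Btg4wt, and 48.7 and 48.6 in Btg4tm oocytes. Marchf11, with 5.47 and 5.62 TPM in GV and 0.21 and 0.37 in MII oocytes, had 20.4 and 8.80 in the Btg4tm libraries. Both were called lower in MII oocytes, with log2 fold changes of -2.63 for Sfta2 and -2.22 for Marchf11, which was true of none of the 6. Asf1a, a histone chaperone gene, had 362 and 320 TPM in GV, 353 and 348 in MII and 519 and 521 in Btg4tm oocytes. Nearest below the Btg4wt limit were Crls1, Cd68 and Ube2q2, with ratios of 1.45, 1.41 and 1.34 to Btg4wt. Nearest above the limits were Rap2b, Tceanc2 and 8030462N17Rik for GV, and 8030462N17Rik, Tceanc2 and Grb7 for Btg4wt.

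With 1.2 in place of 1.5 the rule held 43 genes. Of the 37 added, MII oocytes had 4 called lower and 2 called higher against GV oocytes, and their median log2 fold change was 0.19. Of the 68 genes at least 1.5 times Btg4wt with both Btg4tm libraries above GV, 19 were called lower in MII oocytes, and the median was -0.51. The 2 genes removed by their symbols were Gm7525 and Gm44974. Gm7525 had 247 and 191 TPM in GV, 5.81 and 6.03 in MII, 4.54 and 8.69 in Btg4wt, and 553 and 676 in Btg4tm oocytes. Gm44974 had MII libraries of 28.1 and 7.02 TPM, which enclose its Btg4tm values of 12.8 and 13.7.

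Apart from Grb7, the 6 genes shared long annotated 3′ UTRs, a feature the rule did not use. The longest transcripts of the 6 had a median of 4712 bases, against 1898 in the 1549 genes at least 1.5 times Btg4wt whose longest transcript is coding and 3236 in the 9432 such genes tested. The quartiles of these 9432 were 2033 and 4819 bases. Alyref (3527 bases), Ccdc85c (4298) and Grb7 (2397) lay between them. The median 3′ UTR of the 6 genes had 2783 bases, against 595 and 1235. It was 5456 bases in Tceanc2, 3642 in 8030462N17Rik, 2822 in Rap2b, 2743 in Ccdc85c and 2732 in Alyref, and 368 in Grb7. The coding sequence had a median of 984 bases, against 876 and 1344. GC content had a median of 49.3%, against 51.7 and 48.9%, and ran from 44.3% in 8030462N17Rik to 61.4% in Ccdc85c. The isoform present in oocytes was not determined, and with 6 genes these medians are a description.

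**Figure D4:**
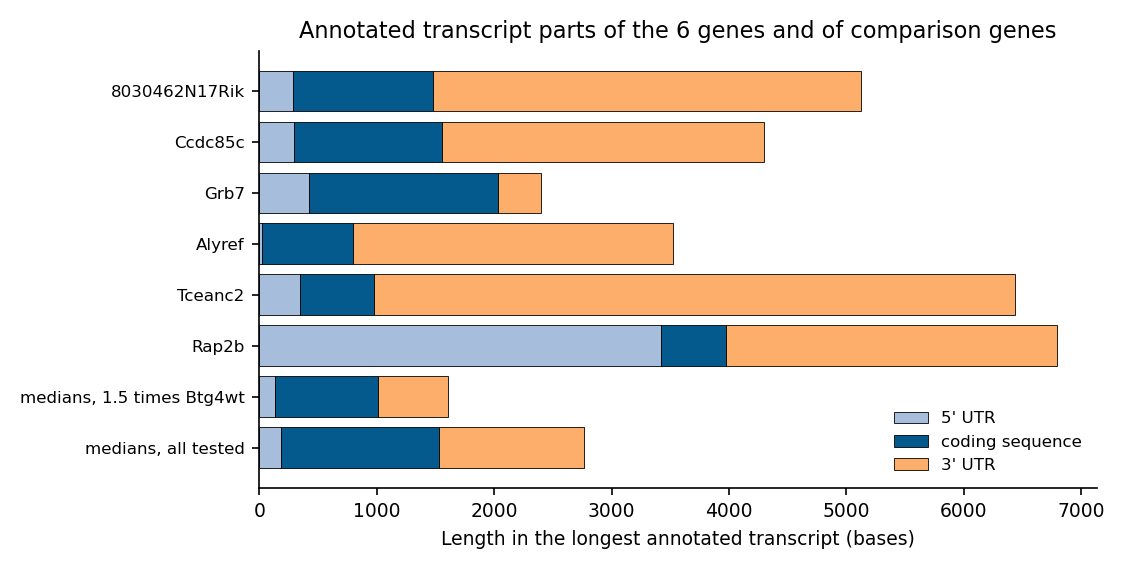
Annotated length in bases (x axis) of the 5′ UTR, coding sequence and 3′ UTR in the longest transcript of each gene, with the median of each part in genes at least 1.5 times Btg4wt and in all genes tested that have a coding longest transcript. The 3′ UTR is the longest part in 4 of the 6 genes, Rap2b has a 5′ UTR of 3419 bases, and Grb7 is the only gene with a 3′ UTR under 595 bases.

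Unstranded counting with the stated settings drops reads that fall on exons of 2 genes, and this bears unequally on the 6. Of the exonic bases of Rap2b, 58.3% lie on exons of genes of the opposite strand, mostly those of B430305J03Rik. These overlaps come from GENCODE M21, while the study counted reads on a later release, so how far they hold for the deposited values was not tested. One of these genes, Gm37696, had 7.72 and 7.04 TPM in GV, 52.7 and 40.3 in MII and 16.9 and 16.3 in Btg4tm oocytes, which is not the order seen in Rap2b. For Tceanc2 the share was 21.2%, with Gm12802 and the abundant Tmem59, which ran from 460 to 795 TPM. For 8030462N17Rik it was 2.66%, and Ccdc85c, Grb7 and Alyref had none. A share of 1.41% of the 50-base stretches of Alyref occurs in Alyref2 and Gm11246. The longest run of A in the Tceanc2 transcript was 25 bases, against 5 to 12 in the other 5 and a median of 6 in all genes tested; its part in oligo(dT) priming was not tested.

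Close neighbours were found for Alyref and Ccdc85c. Anapc11, which starts 56 bp upstream of Alyref on the other strand, had 63.6 and 70.8 TPM in GV, 39.6 and 36.4 in MII, 33.0 and 36.5 in Btg4wt, and 55.4 and 64.1 in Btg4tm oocytes, so its Btg4tm values overlapped those in GV, and those of Alyref did not. Ccnk, which ends 243 bp downstream of Ccdc85c, had 7.55 and 18.9 TPM in Btg4tm and 28.3 and 48.8 in Btg4wt oocytes, the opposite order to that of Ccdc85c.

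Relatives by name, chosen after the members were known, were examined for all members but 8030462N17Rik. Those listed for all 8 libraries did not meet the rule, whose 2 ratios were both reached by only 8 of the 8644 genes at its level. Ccdc85a and Ccdc85b were not listed for all 8 libraries and could not be judged. Alyref2 had 13.5 and 13.4 TPM in GV and 15.8 and 10.3 in Btg4tm oocytes. Rap2a was at 5.31 and 4.47 TPM in GV, 9.18 and 7.24 in Btg4wt, and 6.96 and 6.81 in Btg4tm oocytes. Grb10, at 5.45 and 6.13 TPM in GV, had 4.45 and 4.64 in Btg4tm oocytes. Tcea2 reached 1.62 times its highest Btg4wt value and only 0.70 times its highest GV value. Tcea1, Tcea3 and Tceanc had ratios to GV of 1.27, 0.88 and 0.85 and none reached 1.5 times Btg4wt.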

How the data were processed

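The authors deposited TPM per gene symbol, 1 table per library and 2 libraries per group. Per the labels and methods they trimmed reads with Trim Galore 0.6.10, aligned them to GRCm38 with HISAT2 2.2.0, and counted them on exons with featureCounts 2.0.6 without strand, at a mapping quality of at least 10. Gene lengths behind the TPM are not given in the sources used here. TPM keep no depth, so precision rests on the replicates. Genes in all 8 tables were used, and 1422 and 486 genes listed for only the control or only the injected oocytes were not. The rule was applied to the TPM as deposited.

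For the tests, TPM were scaled by the median of ratios over the 13968 genes that reached 1 TPM in 2 or more libraries (factors 0.977 to 1.13), and log2(TPM + 1) was fitted with limma 3.58.1 in R 4.3.3 (lmFit, eBayes with trend, 1 coefficient per group, all 8 libraries). Fold changes on this scale understate those of low genes. Calls needed a Benjamini-Hochberg adjusted p under 0.05 and a log2 fold change beyond 1 in either direction. The procedure was tested on simulated data. Transcripts and positions came from GENCODE M21 on GRCm38, the longest transcript per gene, which matched all 6 genes and 13663 of those tested by symbol. Genes were named by rule: all 6, the 3 nearest inside and outside each limit, and Btg4. Also named were fixed cell type markers, genes removed by symbol, and genes listed only for injected oocytes. Genes that overlap, neighbour or share sequence with members were named as well. Relatives by name were chosen after the members were known. The members and lists were chosen with earlier results of these data known. Alternatives were other scalings, pseudocounts, filters, thresholds, fits and levels, a replicate block, and leaving out each library.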

Additional observations from a re-analysis of the deposited data

Results flagged for a closer look

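Genes listed only for injected oocytes have no GV or MII value and could not enter the rule. Of 486 such genes, 26 had a mean of at least 5 TPM in Btg4tm oocytes, 13 of them without the symbols left out above. Of these 13, 8 (61.5%) had a lowest Btg4tm value (TPM + 1) of at least 1.5 times the highest Btg4wt value, against 2025 of 7367 genes (27.5%) in all 8 tables under the same conditions. The listing of these genes rests on the injected oocytes alone, and they were kept for their Btg4tm level. The shares carry this selection and are a description. The 8 genes are given here because they lie outside the comparisons above. The ratio was 6.02 for Rps27rt, with 0 and 0.64 TPM in Btg4wt and 8.86 and 9.30 in Btg4tm oocytes. It was 5.13 for Mylpf, with 0.78 and 0.23 TPM in Btg4wt and 8.11 and 12.2 in Btg4tm oocytes. The ratios of the others were 4.78 for Cyp2b13, 4.63 for 1810044D09Rik, 4.63 for Rnf113a1, 4.08 for 2410137M14Rik, 4.06 for Lrrc51 and 2.35 for 1700025B11Rik. Their levels in GV and MII oocytes were not analysed here, so whether they exceeded GV oocytes was not tested. Groups of 2 libraries are too small for a test of single outlying libraries.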

How the results depend on the processing

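Of 158 values of the summary results under alternatives, 132 kept to their result and 26 moved. Many of these values could hardly move, so the tally is no measure of how firm the results are. Few or no genes of all tested were called in Btg4wt over MII under any setting. A replicate block or a fit of the compared libraries alone leaves a median unchanged by design. The medians of Btg4tm over Btg4wt and over GV follow from the selection. The number of genes selected was 43, 2 and 0 with ratios of 1.2, 2 and 3, 3 with a mean of at least 20 TPM, 12 after median-of-ratios scaling and 10 after quantile normalization, which kept 3 of the 6 (Ccdc85c, Alyref and Rap2b). Scaling to the mitochondrially encoded genes kept Ccdc85c and Alyref among 4 genes. Leaving out 1 library gave 7 to 38 genes, always with the 6, since fewer libraries loosen the rule; 38 came without Btg4tm replicate 2, 30 without Btg4tm replicate 1, 19 without GV replicate 1, 12 without GV replicate 2 and 11 without Btg4wt replicate 1.

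Of the 6 genes, 0 were called higher in MII than in GV oocytes. This became 1 with quantile normalization, where 3154 of the 13968 genes tested were called higher. It was 1 with a pseudocount of 0.1 (2130 of all genes tested) and 2 with no minimum fold change (4143 of all genes tested). Without GV replicate 1 or MII replicate 1, Grb7 had log2 fold changes of 1.08 and 1.06. Scaling to the mitochondrially encoded genes made 6 lower, and 11403 of the 13968 genes tested. The median log2 fold change from GV to MII was 0.515 with quantile normalization, -1.743 with mitochondrial scaling, and -0.079 (without GV replicate 2) to 0.358 without 1 library. That of Btg4tm over Btg4wt was 1.062, 2.183 and 1.506 with quantile normalization, mitochondrial scaling and a pseudocount of 0.1, and 1.003 to 1.598 without 1 library, both ends being Btg4wt replicates. That of Btg4tm over GV was 0.661 with mitochondrial scaling. Of the single genes, mitochondrial scaling reversed MII over GV in 8030462N17Rik (-1.63), Ccdc85c (-1.69), Grb7 (-1.08) and Alyref (-1.80), and Btg4wt over MII in 8030462N17Rik (0.37) and Rap2b (0.26). Alyref, near 0, also reversed with TPM as deposited (-0.11) and a filter at 5 TPM (-0.03), and ran from -0.24 to 0.28 without 1 library. Quantile normalization put MII over GV at 0.00 in Tceanc2 and 0.05 in Rap2b. Without 1 library, Btg4wt over MII ran from -0.18 to 0.64 in Tceanc2 and from -0.28 to 0.18 in Rap2b. For other values that moved, the cause was not tested.

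Same-numbered libraries did not deviate together (correlations of -0.054 to 0.055), so the numbers pair nothing. With a replicate block 4 of the 6 genes were higher in Btg4tm than in MII oocytes and the counts for MII over GV and Btg4wt over MII stayed at 0. A fit without a library has a lone library in that group, which is assumed to vary like the others.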
